A study of Homo sapiens with 16 samples.

Results

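The 58 genes described here encode the cyclins, kinases, motors and chromosome proteins that carry a cell through G2 and mitosis, and they were taken by name for these roles. They were read on 16 expression arrays of Nalm6, an established human line of B-cell precursor acute lymphoblastic leukaemia, and 57 of the 58 were measured among 18132 genes in all. The remaining gene, PTTG1, which encodes the separase inhibitor securin, had 0 probe sets that name it alone and 1 that names several genes, so it is not reported. The cells fell into 4 groups of 4 arrays. Cells labelled as carrying active and overexpressed CASP1, the inflammatory caspase, were studied after 24 hours of prednisolone, a synthetic glucocorticoid, and without treatment. Control cells of the same line were studied after 24 hours of prednisolone and without treatment. The sample labels spell the drug as a form of prednisone and the labels' protocol as prednisolone. The dose, the way the CASP1 cells were made and whether they are a single clone are not stated in the sources at hand.

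Values are log2 signals, on which a step of 1 is a doubling. CASP1 itself, on its brightest probe set, went against the label. Its signal averaged 5.02 ± 0.26 in treated and 5.69 ± 0.25 in untreated cells labelled CASP1, against 6.95 ± 0.097 in treated and 7.75 ± 0.15 in untreated control cells (SD, n = 4 each). Whether this probe set reads the CASP1 that the label calls overexpressed was not tested. The lines are therefore called by their labels throughout. NR3C1, the glucocorticoid receptor gene, averaged 11.00 ± 0.13 in treated and 10.15 ± 0.13 in untreated cells labelled CASP1, and 11.42 ± 0.042 in treated and 10.18 ± 0.17 in untreated control cells. Of 12 markers of B-cell precursors 11 were measured and 9 of them had mean signals over 8, up to 12.75 for VPREB1. Markers of T cells, myeloid cells and erythroid cells had mean signals of at most 4.35, 4.38 and 5.07. Array medians lay between 4.85 and 4.93. Replicate 1 stood apart from replicates 2 to 4, over all genes as well as for these, and most of all in treated cells labelled CASP1. Over all genes, deviations from the group mean had an SD of 0.21 to 0.30 on replicate 1 arrays. On the other arrays this SD was 0.12 to 0.17. The counts below are given with and without replicate 1. The arrays give an average over all cells of a culture, so a smaller share of dividing cells and less RNA per dividing cell cannot be told apart.

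Cells enter mitosis when CDK1, bound to cyclin A2 and then to the B cyclins, is released from inhibitory phosphate by the CDC25 phosphatases. Polo-like kinase 1 and the aurora kinases then build the spindle, the kinetochores attach chromosomes to it, and the spindle checkpoint holds the anaphase-promoting complex back until every chromosome is attached. CDC20 then turns that complex on, securin and the cyclins are destroyed, separase cuts cohesin, and the central spindle proteins split the cell. The genes are transcribed together late in the cell cycle. In G0 and G1 the DREAM complex represses them through a promoter element called the cell cycle genes homology region (CHR), and in G2 the MuvB core with MYBL2 and FOXM1 activates them, often beside CCAAT boxes bound by NF-Y. The genes of DNA replication are known for E2F sites instead. Glucocorticoids are known to arrest leukaemic lymphoid cells mostly in G1.

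The promoters of 8 genes on which the results below turn are shown because these elements are what the genes share most plainly. Each run is the 200 bases before the most upstream annotated start, 5′ to 3′ on the gene's own strand, from RefSeq on GRCh38.p14. The capitals mark the CHR searched as TTTGAA or TTCGAA, the CCAAT box as CCAAT and an E2F-like site as TTGGCGC or TTCGCGC, on either strand. The regions are chr4:121823884-121824083 (minus strand) for CCNA2, chr5:69166950-69167149 (plus) for CCNB1, chr15:59104946-59105145 (plus) for CCNB2, chr10:60778131-60778330 (plus) for CDK1, chr1:43358781-43358980 (plus) for CDC20, chr16:23678689-23678888 (plus) for PLK1, chr10:128126424-128126623 (minus) for MKI67 and chr2:168890431-168890630 (minus) for SPC25. MKI67 and SPC25 were added after their values were seen.
CCNA2: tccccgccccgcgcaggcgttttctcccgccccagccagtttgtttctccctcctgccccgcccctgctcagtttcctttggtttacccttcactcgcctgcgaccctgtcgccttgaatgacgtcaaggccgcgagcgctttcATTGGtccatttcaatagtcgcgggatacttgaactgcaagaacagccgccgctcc
CCNB1: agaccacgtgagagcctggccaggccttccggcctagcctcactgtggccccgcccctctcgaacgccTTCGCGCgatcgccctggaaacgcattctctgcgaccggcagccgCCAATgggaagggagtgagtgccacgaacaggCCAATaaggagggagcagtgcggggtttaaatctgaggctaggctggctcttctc
CCNB2: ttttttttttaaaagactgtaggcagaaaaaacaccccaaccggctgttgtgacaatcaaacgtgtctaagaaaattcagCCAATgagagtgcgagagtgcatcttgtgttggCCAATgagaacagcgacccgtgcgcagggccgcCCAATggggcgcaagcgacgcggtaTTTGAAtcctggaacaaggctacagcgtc
CDK1: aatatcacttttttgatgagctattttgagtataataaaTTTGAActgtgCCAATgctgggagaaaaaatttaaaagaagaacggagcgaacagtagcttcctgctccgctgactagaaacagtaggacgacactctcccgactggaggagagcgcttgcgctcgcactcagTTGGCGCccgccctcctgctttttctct
CDC20: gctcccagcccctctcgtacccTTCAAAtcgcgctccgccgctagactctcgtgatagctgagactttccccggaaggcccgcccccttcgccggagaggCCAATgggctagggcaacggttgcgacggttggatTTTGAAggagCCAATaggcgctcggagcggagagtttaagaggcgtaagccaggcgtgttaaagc
PLK1: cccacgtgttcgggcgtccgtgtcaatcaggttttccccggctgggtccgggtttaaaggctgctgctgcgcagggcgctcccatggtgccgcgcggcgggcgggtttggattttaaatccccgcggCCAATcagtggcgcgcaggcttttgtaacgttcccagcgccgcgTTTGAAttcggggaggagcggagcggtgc
MKI67: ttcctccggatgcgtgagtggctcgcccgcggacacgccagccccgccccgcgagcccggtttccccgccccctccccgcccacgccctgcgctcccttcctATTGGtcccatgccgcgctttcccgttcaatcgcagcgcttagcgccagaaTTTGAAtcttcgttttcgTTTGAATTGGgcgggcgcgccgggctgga
SPC25: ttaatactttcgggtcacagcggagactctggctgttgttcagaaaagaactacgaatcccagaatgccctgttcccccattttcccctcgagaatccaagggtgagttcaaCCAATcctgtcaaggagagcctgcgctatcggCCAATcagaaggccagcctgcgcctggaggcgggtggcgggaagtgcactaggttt

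CCNB2 has 3 CCAAT boxes and a CHR at position -29 from the start, PLK1 has a CCAAT box at -73 and a CHR at -29, and CDC20 has CCAAT boxes at -100 and -55 with a CHR at -178 and at -65. In MKI67 a CHR at -29 overlaps the reverse CCAAT box at -24, and another CHR lies at -47. CDK1 holds all 3 kinds, with its E2F-like site at -28, and CCNB1 holds an E2F-like site and 2 CCAAT boxes. These letters of the CHR are not in the windows of CCNA2 and CCNB1, and those of SPC25 lie outside the bases shown. Other spellings of the element were not searched, so a gene without these letters may still hold a CHR. Windows of 300 bases, 250 before and 50 after each start, were at hand for 50 of the 58 genes. A CHR was found in 38 of the 50 (76%), against 17.6% of 14425 tested genes with a window and 10.5% of 38 DNA replication genes. The CCAAT box was found in 76%, against 42.4% and 57.9%, and both elements together in 60%, against 7.37% and 7.89%. The E2F-like site was most frequent in the replication genes, at 16% of the mitotic genes, 8.48% of all tested genes and 44.7% of the replication genes. Over all 35116 windows of the table the shares were 16.4% for the CHR, 34.6% for the CCAAT box and 5.06% for the E2F-like site. A match describes letters in a window and does not show that a factor binds there. The 38 measured genes with the CHR letters searched and the 11 without them had median prednisolone differences of -0.40 and -0.28 in control cells. Their median line differences were 0.49 and 0.61 in untreated cells.

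The 4 groups took different levels. The mean signal of the 57 genes was 9.57 ± 0.21 in treated and 9.66 ± 0.067 in untreated cells labelled CASP1, and 8.80 ± 0.027 in treated and 9.19 ± 0.056 in untreated control cells (SD, n = 4 each). Each array of cells labelled CASP1 lay above each control array. Treated control arrays lay below untreated control arrays with no overlap, whereas in cells labelled CASP1 replicate 1 of the treated cells was the highest array of all, at 9.89, and the other 3, at 9.43 to 9.51, lay below the untreated ones. The 43 measured genes of DNA replication kept another order: 8.74 ± 0.14 in treated and 9.14 ± 0.032 in untreated cells labelled CASP1, against 8.45 ± 0.12 in treated and 9.35 ± 0.015 in untreated control cells. They were lower in untreated cells labelled CASP1 than in untreated control cells, the reverse of the mitotic genes.

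**Figure D1:**
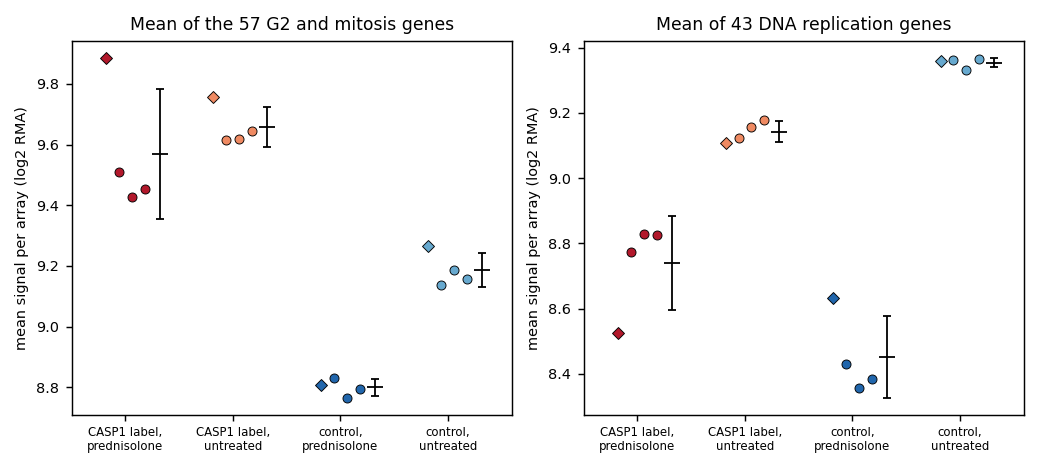
Mean log2 RMA signal per array over the 57 measured G2 and mitosis genes (left) and over the 43 measured DNA replication genes (right), by group. Points are arrays, diamonds are replicate 1, and bars give the mean and SD of 4 arrays. The mitotic genes lie highest in both groups labelled CASP1, with the treated replicate 1 at 9.89, and the replication genes lie highest in untreated control cells, at 9.35 on average.

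In untreated cells, 34 of the 57 genes were higher in cells labelled CASP1 than in control cells and 0 were lower, against 5.87% of all genes called higher and 8.2% called lower. Calls required an adjusted p below 0.05 in limma's moderated test, Benjamini-Hochberg adjusted over all genes, as is every adjusted p given here. The median difference was 0.48 (cells labelled CASP1 minus control, log2), with 53 of 57 above 0, against a median of 0.0066 over all genes. The called genes ran from 0.36 to 1.59. All 4 of the cytokinesis genes, 5 of 6 spindle assembly genes, 3 of 4 chromosomal passenger genes, 6 of 10 kinesins and 4 of the 6 genes of the CDK1 switch were called higher. Neither of the transcription factors was called, and 2 of 6 genes of chromosome structure were.

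Among the genes of the CDK1 switch, CCNB1, which encodes cyclin B1, gave 10.22, 10.49, 10.38 and 10.50 in untreated cells labelled CASP1 and 10.12, 9.72, 9.64 and 9.69 in untreated control cells. The groups did not overlap, and the difference was 0.61 (SE 0.16, adjusted p = 0.015). CCNB2, the other B cyclin, gave 10.82, 10.76, 10.70 and 10.73 against 10.22, 9.96, 9.97 and 10.07 and differed by 0.70 (adjusted p = 0.00028). CDC25C, the phosphatase that activates CDK1 at mitotic entry, averaged 8.46 ± 0.055 against 7.80 ± 0.065 and differed by 0.67 (adjusted p = 1.7e-05). CDK1 itself differed by 0.41 (adjusted p = 0.0028). The 2 genes of this group that were not called were CCNA2, at 0.28 with a 95% interval, unadjusted as all intervals here, of 0.03 to 0.53, and CDC25B, at 0.18 with an interval of -0.04 to 0.41. Without the replicate 1 arrays CCNA2 was called, at 0.24 (adjusted p = 0.019).

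The aurora A gene AURKA, whose kinase matures the centrosomes, gave 10.77, 10.54, 10.49 and 10.51 in untreated cells labelled CASP1 and 10.02, 9.37, 9.30 and 9.35 in untreated control cells. It differed by 1.07 (SE 0.20, adjusted p = 0.0011), a 2.10-fold higher signal, and the highest control array was replicate 1. PLK1 averaged 6.64 ± 0.37 against 6.13 ± 0.23; at 0.52 with an interval of 0.07 to 0.97 it was not called. Without the replicate 1 arrays PLK1 was called at 0.42 (adjusted p = 0.005). Of the checkpoint genes, BUB1 gave 11.32, 10.97, 10.91 and 10.96 against 10.44, 10.45, 10.46 and 10.32 and differed by 0.62 (adjusted p = 0.0021). The kinase gene BUB1B differed by 0.44 (adjusted p = 0.047), a call that ended when any of 12 single arrays was left out. MAD2L1 and BUB3, which encode the checkpoint proteins MAD2 and BUB3, were not called, at -0.09 (interval -0.35 to 0.17) and -0.05 (interval -0.19 to 0.09), and TTK, at 0.45 (interval 0.09 to 0.82), was not called. TTK was called without the replicate 1 arrays, at 0.37 (adjusted p = 0.012), and in the fit of only the 8 arrays compared (adjusted p = 0.017).

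CDC20, the activator of the anaphase-promoting complex, gave 10.25, 9.78, 9.73 and 9.77 in untreated cells labelled CASP1 against 9.46, 8.82, 8.85 and 8.97 in untreated control cells. The groups did not overlap and replicate 1 was the highest array of both. The difference was 0.86 (SE 0.26, adjusted p = 0.031) and lost its call when any of 6 single arrays was left out. It also lost it when a gene's probe sets were averaged (0.49, adjusted p = 0.063). The dimmest probe set of CDC20, with a mean signal of 3.82, gave -0.12, and the remaining one gave 0.73. Separase, encoded by ESPL1, differed by 0.46 (adjusted p = 0.014). Without untreated control replicate 2 the adjusted p was 0.0594, and without replicate 4 it was 0.0521. With probe sets averaged the difference was 0.24 (adjusted p = 0.107). The other probe set of ESPL1 was dim, with a mean signal of 4.24 against 8.28 for the one used. SGO2, a protector of centromeric cohesin, gave 8.63, 8.61, 8.62 and 8.70 against 7.42, 7.66, 7.72 and 7.72, a difference of 1.01 (adjusted p = 0.0051). The size rests on its brightest probe set. The others gave 0.50 and 0.53 and were not called when all probe sets were tested, although the call of SGO2 stood with probe sets averaged. SGO1, a relative of SGO2, was not called, at -0.05 with an interval of -0.30 to 0.20.

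In the chromosomal passenger complex, which corrects faulty attachments, AURKB differed by 0.70 (adjusted p = 0.00025) and BIRC5, the gene of survivin, by 0.49 (adjusted p = 0.0072). Among the kinetochore genes, CENPA, the centromeric histone, differed by 0.58 (adjusted p = 0.032) and CENPF by 0.50 (adjusted p = 0.043), and these calls ended without any of 7 and any of 12 single arrays. Of the kinesins, KIF20A, the motor that carries the passenger complex to the central spindle, gave 8.95, 8.67, 8.60 and 8.68 in untreated cells labelled CASP1 and 7.80, 7.0, 7.19 and 7.21 in untreated control cells. It was 2.68-fold higher, at 1.42 (SE 0.18, adjusted p = 4.1e-05). KIF11, the motor that separates the spindle poles, was not called, at 0.15 with an interval of -0.09 to 0.39. NUSAP1 and TPX2, which bind spindle microtubules, differed by 0.65 (adjusted p = 8.2e-05) and 0.56 (adjusted p = 0.01), and PRC1, the cross-linker of the central spindle, by 0.76 (adjusted p = 6.7e-05).

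MKI67, which encodes the surface protein of mitotic chromosomes used clinically as the Ki-67 marker, showed the largest difference of the 57 on its brightest probe set. It gave 11.30, 11.06, 11.03 and 10.97 in untreated cells labelled CASP1 and 9.54, 9.41, 9.52 and 9.53 in untreated control cells. The groups lay far apart, and the difference of 1.59 (SE 0.16, adjusted p = 4.1e-06) was a 3.01-fold higher signal. The size rests on that probe set: the other 5 of MKI67 gave 0.21 to 1.09, and with the gene's probe sets averaged the difference was 0.72 (adjusted p = 0.00013), below the 1.42 of KIF20A and the 1.07 of AURKA, which have 1 probe set each. TOP2A, the topoisomerase that untangles sister chromatids, gave 12.29, 12.34, 12.35 and 12.31 against 11.97, 11.91, 11.97 and 12.00 and differed by a smaller 0.36 (adjusted p = 0.0027). SMC2, a condensin subunit, was the lowest of the 57, at -0.21 with an interval of -0.45 to 0.02. The transcription factors of the programme were not called. FOXM1 gave 7.64, 7.31, 7.43 and 7.57 against 7.62, 7.34, 7.13 and 7.17, a difference of 0.17 with an interval of -0.16 to 0.50, and MYBL2 gave 8.82, 8.81, 8.81 and 8.86 against 8.84, 8.76, 8.85 and 8.77, a difference of 0.02 with an interval of -0.19 to 0.23.

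**Figure D2:**
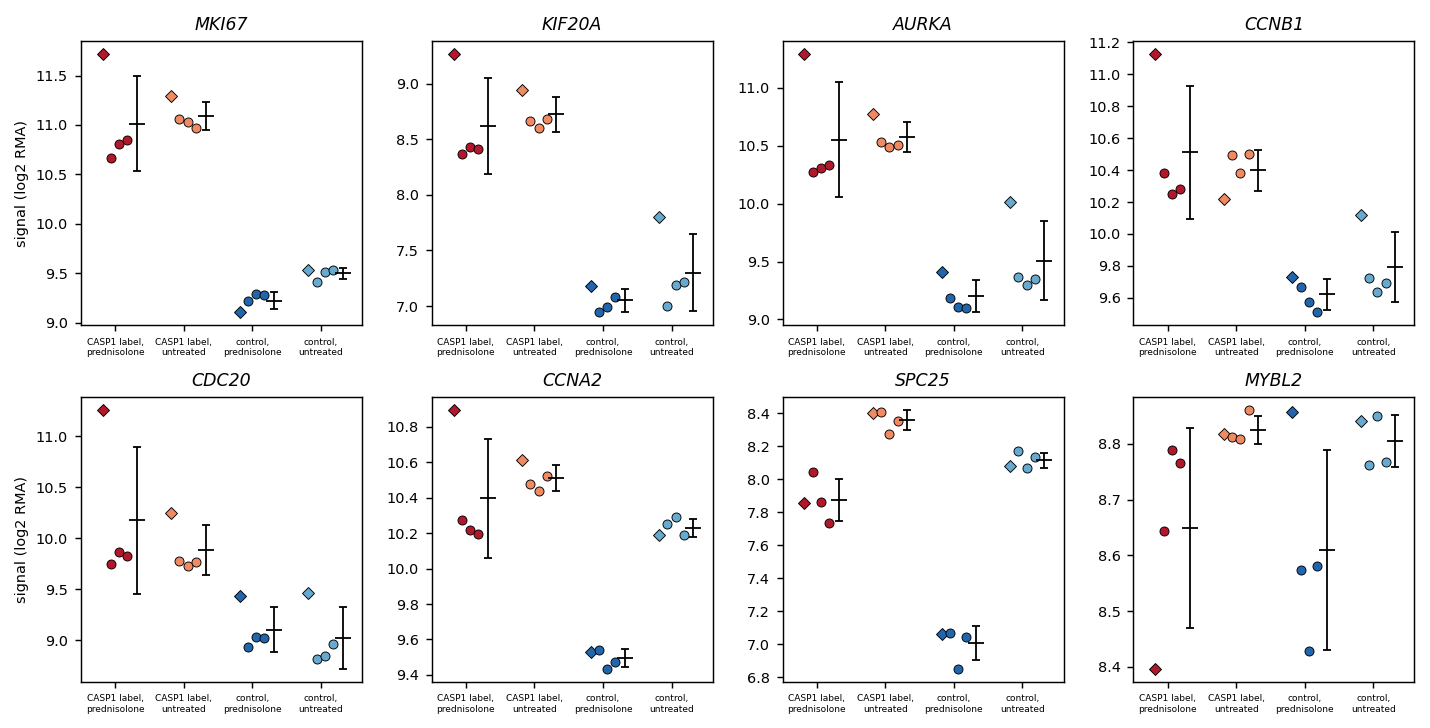
Log2 RMA signal of 8 G2 and mitosis genes on each of the 16 arrays, by group. Points are arrays, diamonds are replicate 1, and bars give the mean and SD of 4 arrays. MKI67, KIF20A and AURKA lie higher in both groups labelled CASP1, CCNA2 and SPC25 lie lowest in treated control cells, and MYBL2 differs little between the lines.

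Under prednisolone more of the genes passed the test between the lines. Of the 57, 47 were higher in treated cells labelled CASP1 than in treated control cells and 0 were lower, against 7.88% of all genes called higher and 8.52% called lower. All 57 differences lay above 0, with a median of 0.83 against 0.045 over all genes, and the called genes ran from 0.43 to 1.79. All 6 genes of the CDK1 switch, all 3 mitotic kinases, all 5 measured anaphase genes, all 4 chromosomal passenger genes and all 4 cytokinesis genes were called. The 10 that were not called were BUB3 and MAD2L1 of the checkpoint, CENPE of the kinetochore, KIF11, KIF20B and KIF15 of the kinesins, ASPM of spindle assembly, SMC2 and SMC4 of chromosome structure, and MYBL2. CENPE, KIF15, KIF20B and SMC4 were named there after their values were seen. KIF11, at 0.33 (adjusted p = 0.057), was called without the replicate 1 arrays, at 0.54 (adjusted p = 7.3e-05), and MAD2L1, at 0.36 (adjusted p = 0.054), was called under several settings, among them quantile normalization (0.39, adjusted p = 0.029).

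CDC25C gave 8.41, 8.49, 8.51 and 8.56 in treated cells labelled CASP1 and 7.18, 7.45, 7.24 and 7.40 in treated control cells. The groups did not overlap, replicate 1 of the treated cells labelled CASP1 lay with the others here, and the difference was 1.17 (SE 0.079, adjusted p = 3.6e-08). CCNA2, the cyclin of S phase and early mitosis, which was not called in untreated cells, gave 10.89, 10.27, 10.22 and 10.20 against 9.53, 9.54, 9.44 and 9.48 and differed by 0.90 (adjusted p = 5.1e-05). CDC25B was called as well, at 0.43 (adjusted p = 0.0095), as were CCNB1 at 0.89, CCNB2 at 0.96 and CDK1 at 0.67. The dimmer probe sets of CDC25B gave 0.16 to 0.31, and none was called when all probe sets were tested. The call of CDC25B stood with probe sets averaged. AURKA gave 11.30, 10.27, 10.31 and 10.34 against 9.41, 9.19, 9.11 and 9.10, a difference of 1.35 (adjusted p = 0.00011), with replicate 1 far above the other treated arrays of its line. PLK1 gave 7.63, 6.60, 6.72 and 6.59 against 6.31, 5.93, 5.95 and 5.78 and was called at 0.89 (adjusted p = 0.0076).

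AURKB gave 9.70, 9.24, 9.38 and 9.34 in treated cells labelled CASP1 against 8.34, 8.22, 8.10 and 8.23 in treated control cells, and was 2.29-fold higher, at 1.19 (SE 0.11, adjusted p = 1.2e-06). NUF2, a subunit of the NDC80 complex that grips the microtubule, gave 9.88, 9.72, 9.61 and 9.59 against 8.21, 8.86, 8.76 and 8.77, a difference of 1.05 (adjusted p = 4e-05), and its partner SPC25 differed by 0.87 (adjusted p = 1.7e-06). Both groups of NUF2 arrays were clear of each other, and the lowest was replicate 1 of the control cells, at 8.21. KIF2C, the kinesin that depolymerises microtubules at the centromere, averaged 11.02 ± 0.37 against 9.69 ± 0.051 and differed by 1.33 (adjusted p = 5.6e-06), and KIF20A differed by 1.57 (adjusted p = 1.5e-05). MKI67 was again the highest of the 57 on its brightest probe set: it gave 11.72, 10.66, 10.81 and 10.85 against 9.10, 9.22, 9.29 and 9.28, a 3.45-fold higher signal at 1.79 (adjusted p = 1.1e-06). Its other 5 probe sets gave 0.65 to 1.19, and averaged over all of them MKI67 differed by 0.95 (adjusted p = 7.8e-06), below KIF20A. FOXM1 gave 7.75, 7.07, 7.41 and 7.48 against 7.14, 6.72, 6.48 and 6.50; it was called at 0.71 (adjusted p = 0.004) although the groups overlapped. MYBL2 gave 8.40, 8.64, 8.79 and 8.76 against 8.86, 8.57, 8.43 and 8.58, and its difference of 0.04 had an interval of -0.17 to 0.25.

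In control cells prednisolone lowered 24 of the 57 genes and raised 0, against 8.43% of all genes called lower and 5.73% called higher. The median difference was -0.37 (prednisolone minus untreated, log2), with 53 of 57 below 0, against -0.015 over all genes. The called genes ran from -0.28 to -1.11. The falls were spread over the roles: 3 of 6 genes of the CDK1 switch, 3 of 6 kinetochore genes, 5 of 10 kinesins, 3 of 6 genes of chromosome structure, 2 of 4 cytokinesis genes, 2 of 6 spindle assembly genes, 2 of 5 checkpoint genes, 2 of 5 anaphase genes, 1 of 4 chromosomal passenger genes and FOXM1 of the 2 transcription factors. None of the 3 mitotic kinases was called. Of these NEK2, at -0.42 (adjusted p = 0.058), passed in 6 other fits, among them that without the replicate 1 arrays, at -0.34 (adjusted p = 0.0017), and that of only the 8 arrays compared (adjusted p = 0.005).

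SPC25, a subunit of the NDC80 complex, fell most. It gave 7.06, 7.06, 6.85 and 7.04 in treated control cells and 8.08, 8.17, 8.07 and 8.13 in untreated control cells, so all treated arrays lay far below all untreated ones, and the difference was -1.11 (SE 0.082, adjusted p = 3.5e-08), a 2.16-fold lower signal. CCNA2 gave 9.53, 9.54, 9.44 and 9.48 against 10.19, 10.25, 10.29 and 10.19. It fell by 0.73 on the log2 scale (SE 0.12, adjusted p = 0.00027), with no overlap. CDK1 gave 10.73, 10.82, 10.87 and 10.84 against 11.25, 11.36, 11.52 and 11.45, a difference of -0.58 (adjusted p = 9.5e-05), and CDC25C fell by 0.48 (adjusted p = 0.00028). The B cyclins were not called: CCNB1 gave 9.73, 9.67, 9.58 and 9.51 against 10.12, 9.72, 9.64 and 9.69, a difference of -0.17 with an interval of -0.51 to 0.16, and CCNB2 had -0.25 with an interval of -0.48 to -0.02.

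Of the checkpoint genes, MAD2L1 gave 10.00, 10.27, 10.11 and 10.22 in treated control cells and 10.67, 11.23, 11.17 and 10.88 in untreated control cells. The groups did not overlap and the difference was -0.84 (SE 0.12, adjusted p = 9.4e-05). BUB1 at -0.31, BUB1B at -0.32 and TTK at -0.37 were not called over all arrays, and were called without the replicate 1 arrays. SGO1, the guardian of centromeric cohesin, fell by 0.68 (adjusted p = 0.00044) and ESPL1 by 0.54 (adjusted p = 0.0047), whereas CDC20 gave 9.43, 8.94, 9.03 and 9.02 against 9.46, 8.82, 8.85 and 8.97 and had a difference of 0.08 with an interval of -0.46 to 0.62. AURKB fell by 0.57 (adjusted p = 0.0011), while AURKA had -0.31 (interval -0.72 to 0.10) and PLK1 -0.14 (interval -0.59 to 0.32). Of the kinesins, KIF20B had the largest fall, by 0.69 (adjusted p = 0.0073), and KIF11 fell by 0.55 (adjusted p = 0.0024). NUSAP1 fell by 0.60 (adjusted p = 0.00011) and the actin binder ANLN by 0.55 (adjusted p = 0.0026). TPX2 at -0.36, CENPF at -0.40, BIRC5 at -0.21 and MYBL2 at -0.19 were not called over all arrays. Without the replicate 1 arrays TPX2 was called (adjusted p = 0.0083), and CENPF and BIRC5 were not.

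NCAPH, a condensin subunit, gave 8.28, 8.0, 7.87 and 7.85 in treated control cells and 8.94, 8.72, 8.75 and 8.79 in untreated control cells, and fell by 0.80 (adjusted p = 0.00011). With the gene's probe sets averaged its difference was -0.21 (adjusted p = 0.064). The other probe sets of NCAPH were dim, with mean signals of 3.48 and 3.44 against 8.56 for the one used. MKI67 and TOP2A, both widely used as proliferation markers, had -0.28 (interval -0.62 to 0.07) and -0.13 (interval -0.29 to 0.03) and were not called, although on each the treated arrays lay below the untreated ones. With probe sets averaged both were called lower, MKI67 at -0.43 (adjusted p = 0.0067) and TOP2A at -0.24 (adjusted p = 0.013). MKI67 was also called in the fit of only the 8 arrays compared (adjusted p = 0.029). FOXM1 gave 7.14, 6.72, 6.48 and 6.50 against 7.62, 7.34, 7.13 and 7.17; the groups overlapped, and the fall of 0.60 (adjusted p = 0.012) missed the threshold without treated control replicate 3 (adjusted p = 0.0526). The 4 genes with differences above 0 were CENPA at 0.13, CDC20, CDC25B at 0.07 and SGO2 at 0.06, and none of them was called. These signs depend on the probe set: with probe sets averaged CENPA was at 0.02, CDC20 at -0.02 and SGO2 at -0.19, and the other 3 probe sets of CENPA gave -0.03 to -0.02.

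Without the 4 arrays of replicate 1, 38 of the 57 genes were lower in treated control cells, against 13.1% of all genes, and the median was -0.33. All 24 genes called over all arrays were among them. CENPA was then higher on its brightest probe set, by 0.21 (adjusted p = 0.047), in a fit that called 8.8% of all genes higher. AURKA at -0.21, CCNB2 at -0.21, MKI67 at -0.22 and MYBL2 at -0.27 passed in that fit, and CCNB1 at -0.10, PLK1 at -0.16 and CDC20 at 0.12 did not. Leaving out only the treated replicate 1 of cells labelled CASP1, an array of neither group compared here, gave 35 lower, because the 4 groups share 1 estimate of the spread of each gene.

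In cells labelled CASP1 prednisolone lowered 4 of the 57 genes and raised 0, against 3.35% of all genes called lower and 2.99% called higher. The members' share was 7.02%. The median difference was -0.058, against 0.018 over all genes, and 41 of 57 lay below 0. The 4 genes were KIF15, SPC25, SMC2 and CDK1. KIF15, a motor that backs up KIF11, gave 8.05, 8.58, 7.99 and 8.24 in treated and 8.72, 8.64, 8.80 and 8.86 in untreated cells labelled CASP1, a difference of -0.54 (SE 0.11, adjusted p = 0.006) without overlap. SPC25 gave 7.86, 8.04, 7.86 and 7.74 against 8.40, 8.41, 8.27 and 8.35, a difference of -0.48 (SE 0.082, adjusted p = 0.001). For SPC25 replicate 1 lay among the other treated arrays.

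SMC2 gave 9.13, 9.39, 8.80 and 9.02 in treated and 9.51, 9.46, 9.48 and 9.51 in untreated cells labelled CASP1, a difference of -0.41 (adjusted p = 0.036), and CDK1 gave 11.43, 11.68, 11.37 and 11.49 against 11.73, 11.83, 11.81 and 11.85, a difference of -0.31 (adjusted p = 0.033). Each call ended without any of 6 single arrays, when centred on the 75th percentile and in the fit of only the 8 arrays compared, and that of CDK1 also with probe sets averaged (-0.33, adjusted p = 0.22). KIF20B at -0.46 (interval -0.81 to -0.11), MAD2L1 at -0.39 (interval -0.65 to -0.13) and KIF11 at -0.37 (interval -0.61 to -0.13) had larger differences than CDK1 and were not called. At the other end, CDC25B gave 8.18, 8.04, 8.28 and 8.23 against 7.82, 7.81, 7.94 and 7.87; the treated arrays lay above the untreated ones, and the difference of 0.32 (interval 0.09 to 0.54, adjusted p = 0.097) was not called. CDC20 gave 11.26, 9.75, 9.87 and 9.83 against 10.25, 9.78, 9.73 and 9.77, and its difference of 0.29 (interval -0.25 to 0.83) was not called; without the replicate 1 arrays it was 0.05 (adjusted p = 0.71).

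CCNA2 gave 10.89, 10.27, 10.22 and 10.20 in treated and 10.61, 10.47, 10.44 and 10.52 in untreated cells labelled CASP1, so the treated replicate 1 lay above all untreated arrays and the other 3 lay below them, and the difference was -0.12 (interval -0.37 to 0.14). Without the replicate 1 arrays CCNA2 fell by 0.25 (adjusted p = 0.024). In that fit 14 of the 57 genes were lower and 0 higher, against 6.15% of all genes called lower, with a median of -0.15, and all 4 of the genes called over all arrays were among the 14. The others included MAD2L1 at -0.46 (adjusted p = 0.02), ANLN at -0.37, NCAPH at -0.26, MKI67 at -0.25 and AURKA at -0.20 (adjusted p = 0.049). FOXM1 and MYBL2 had differences of -0.06 (interval -0.39 to 0.27) and -0.18 (interval -0.38 to 0.03) over all arrays.

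**Figure D3:**
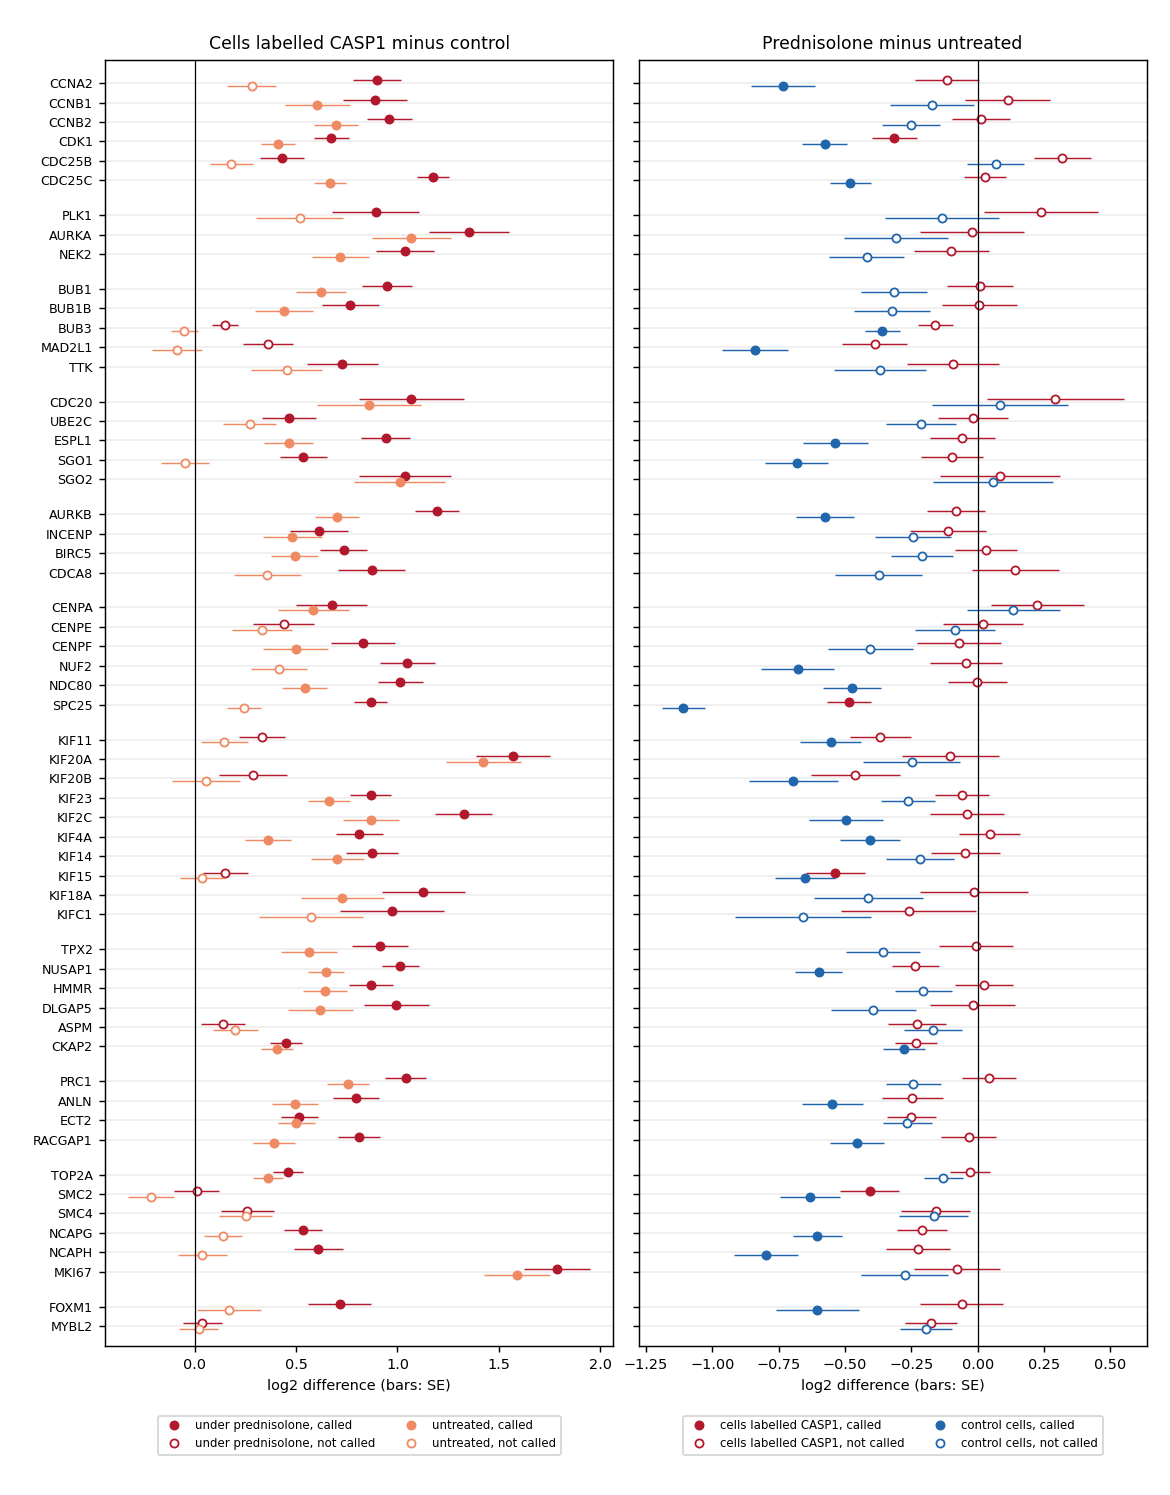
Log2 difference of each of the 57 measured genes, grouped by role from the CDK1 switch (top) to the transcription factors (bottom). Left, cells labelled CASP1 minus control cells, under prednisolone (dark) and untreated (light); right, prednisolone minus untreated in cells labelled CASP1 (red) and control cells (blue). Bars are SE, filled points passed an adjusted p of 0.05, and 47, 34, 4 and 24 points are filled in these 4 comparisons.

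The 15 measured genes not yet named include NDC80, kinesins of the central spindle, spindle assembly factors and the condensin subunit NCAPG. Their line differences ran from 0.14 (NCAPG) to 0.73 (KIF18A) in untreated cells, with 11 called higher, and from 0.45 (CKAP2) to 1.13 (KIF18A) in treated cells, with all 15 called higher. In control cells their prednisolone differences ran from -0.66 (KIFC1, not called) to -0.20 (HMMR), and 5 were called lower. In cells labelled CASP1 they ran from -0.26 (KIFC1) to 0.14 (CDCA8), and 0 were called. The genes at these ends were named after their values were seen. The 57 genes had 151 probe sets in all and 39 had several, and in none of the comparisons was a probe set of a called gene itself called in the opposite direction.

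The interaction takes the response of control cells to prednisolone away from the response of cells labelled CASP1, and so tests whether the 2 differed. It was called for 2 of the 57 genes, both higher, and 0 were called lower, against 0.524% of all genes called higher and 0.364% called lower. Of the 57, 56 lay above 0, and the median was 0.28 against 0.034 over all genes. SPC25 had 0.62 (SE 0.12, adjusted p = 0.012): it fell in both lines, by 0.48 in cells labelled CASP1 and by 1.11 in control cells. This call stood with any single array left out. CDC25C had 0.51 (SE 0.11, adjusted p = 0.038). It gave 8.41, 8.49, 8.51 and 8.56 in treated and 8.42, 8.44, 8.46 and 8.54 in untreated cells labelled CASP1, which overlapped, against 7.18, 7.45, 7.24 and 7.40 in treated and 7.87, 7.72, 7.80 and 7.79 in untreated control cells, which did not. The call of CDC25C ended in 14 of the 16 fits that left out 1 array.

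Interactions larger than that of CDC25C that missed the threshold were those of NUF2 at 0.63 (interval 0.23 to 1.04, adjusted p = 0.18), CCNA2 at 0.62 (interval 0.26 to 0.98, adjusted p = 0.12), SGO1 at 0.58 (interval 0.23 to 0.93), NCAPH at 0.57 (interval 0.22 to 0.93), FOXM1 at 0.54 (interval 0.08 to 1.01) and CDCA8 at 0.51 (interval 0.03 to 1.0). With probe sets averaged NCAPH was at -0.05 (adjusted p = 0.93), an average that takes in its dim probe sets, with mean signals of 3.48 and 3.44. Without the replicate 1 arrays, 6 were called higher, against 2.72% of all genes, and the median was 0.18: SPC25 at 0.67, NCAPH at 0.58, CCNA2 at 0.51, NUF2 at 0.47, CDC25C at 0.45 and KIF11 at 0.40. ASPM, a protein of the spindle poles, was the 1 gene below 0, at -0.06 (interval -0.39 to 0.26). At the low end also lay SMC4 at 0.01, ECT2, which activates the contractile ring, at 0.02, and MYBL2 at 0.02. CDC20 and CENPA had 0.21 (interval -0.55 to 0.97) and 0.09 (interval -0.43 to 0.61).

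Replicate 1 of the treated cells labelled CASP1 was the highest of its 4 arrays in 41 of the 57 genes and the lowest in 5, with a median of 0.43 above the mean of replicates 2 to 4. Over all genes the same array was the highest in 36.4% and the lowest in 33.8%, with a median of 0.010. CDC20 stood 1.44 above the other 3, KIFC1 1.16, KIF18A 1.12, PLK1 and AURKA 0.99 and MKI67 0.95; KIFC1 and KIF18A were named after their values were seen. KIF11 and MYBL2 stood lowest, and the DNA replication genes went the opposite way on this array, with 8 of 43 highest, 31 lowest and a median of -0.26. In the untreated cells labelled CASP1 replicate 1 was highest in 38 genes and lowest in 10 (median 0.11), against 38% and 28.7% of all genes. In treated control cells it was highest in 26 and lowest in 24 (median 0.020), against 31.5% and 35.9% of all genes. There it was highest in 30 of the 43 replication genes (median 0.23). In untreated control cells it was highest in 30 and lowest in 14 (median 0.070), against 33.7% and 36.2% of all genes. The labels give nothing that sets replicate 1 apart, and its part in each result is given by the values without it. Without the replicate 1 arrays, 48 genes were called higher in treated cells (11.6% of all genes, median 0.72) and 41 in untreated cells (8.53% of all genes, median 0.43), and these included all 47 and all 34 genes called over all arrays. Some sizes moved: in treated cells the line difference was 0.40 without these arrays and 0.73 with them for TTK, 0.63 and 1.04 for SGO2, 0.74 and 1.13 for KIF18A, and 0.54 and 0.33 for KIF11.

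**Figure D4:**
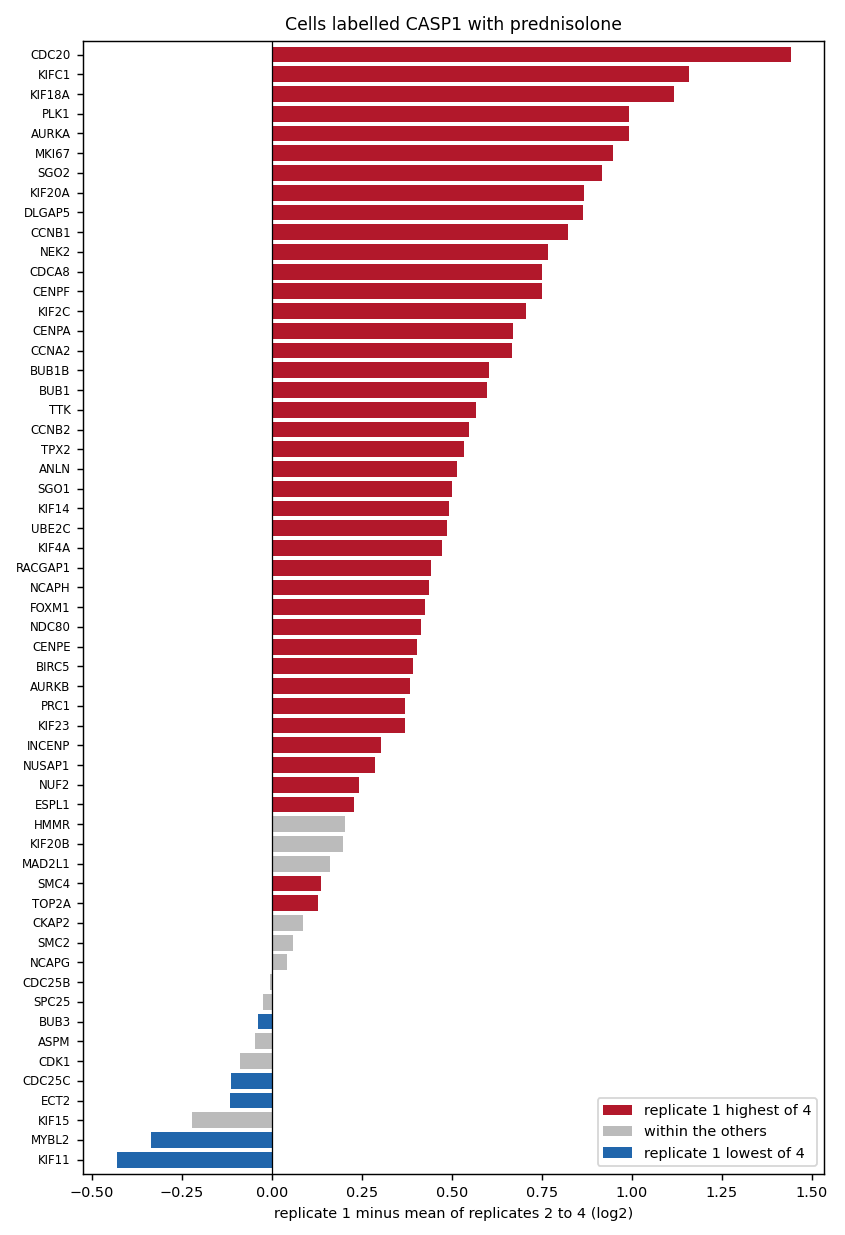
Signal of replicate 1 minus the mean of replicates 2 to 4 (log2) for each of the 57 genes in treated cells labelled CASP1. Red bars mark genes with replicate 1 as the highest of the 4 arrays (41 genes), blue bars the lowest (5 genes) and grey bars the genes between. CDC20 lies at 1.44 and KIF11 at the low end.

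Other genes of the pathway were described from 8 lists that hold 170 entries, read against the same background. Over all genes, prednisolone lowered 3.35% and raised 2.99% in cells labelled CASP1, and lowered 8.43% and raised 5.73% in control cells. In cells labelled CASP1 against control cells, 5.87% were higher and 8.2% lower untreated, and 7.88% higher and 8.52% lower under prednisolone. The interaction was called higher for 0.524% and lower for 0.364%. Among 19 measured MuvB, DREAM and E2F factors, prednisolone lowered 11 and raised 1 in control cells, with a median of -0.36. E2F8 and E2F7, repressors that follow the S-phase wave, fell by 1.33 (adjusted p = 1.9e-06) and 1.14 (adjusted p = 8.8e-05), and E2F1, the activator of the G1 to S transition, by 0.76 (adjusted p = 7.8e-06). In cells labelled CASP1 6 were lower and 0 higher, with E2F8 down by 0.74 (adjusted p = 0.0026) and the MuvB subunit LIN54 down by 0.47 (adjusted p = 0.0029). Between the lines there was no common direction: 2 were higher and 2 lower in untreated cells, and 5 higher and 4 lower in treated cells, with E2F7 at 1.02 (adjusted p = 0.00036) and E2F3 at -0.73 (adjusted p = 0.00012).

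The anaphase-promoting complex, whose substrates include the cyclins, was mostly not called. Of 17 measured genes 1 was lower and 1 higher with prednisolone in cells labelled CASP1 (5.88% each, against 3.35% and 2.99% of all genes). In control cells 4 were lower and 1 higher (23.5% and 5.88%, against 8.43% and 5.73% of all genes). FBXO5, which encodes the inhibitor EMI1, fell by 0.42 in cells labelled CASP1 (adjusted p = 0.0013) and by 0.73 in control cells (adjusted p = 1.3e-06). FZR1, the activator of the complex after anaphase, was higher in cells labelled CASP1, by 1.12 treated (adjusted p = 0.0016) and 0.89 untreated (adjusted p = 0.0094), while the scaffold gene ANAPC1 was lower in untreated cells, at -0.52 (adjusted p = 0.002). Over the list, 2 were higher and 2 lower between the treated lines, and 1 higher and 3 lower between the untreated lines.

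Of 31 measured kinetochore subunits outside the 58, 4 were lower and 0 higher with prednisolone in cells labelled CASP1, with a median of -0.27. In control cells 20 were lower and 0 higher, with a median of -0.47. CENPU, of the inner kinetochore, fell by 1.10 in control cells (adjusted p = 1.9e-06) and KNTC1, of the checkpoint's dynein adaptor, by 1.07 (adjusted p = 1.3e-06). The partner of SPC25, SPC24, fell by 1.01 (adjusted p = 0.0027). The interaction was called higher for 3: CENPP at 0.84 (adjusted p = 0.02), KNTC1 at 0.80 (adjusted p = 0.014) and SKA3 at 0.66 (adjusted p = 0.023). Between the untreated lines only 2 were higher and 4 lower, MAD1L1, the partner of MAD2, being the lowest at -0.89 (adjusted p = 1.6e-05). Between the treated lines 11 were higher and 2 lower.

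Of 14 measured genes of cohesin and the other condensin subunits, 4 were lower and 0 higher with prednisolone in cells labelled CASP1, where the cohesin core gene SMC3 fell by 0.55 (adjusted p = 0.0092), and 6 were lower and 0 higher in control cells. The cohesin release factor WAPL was lower in cells labelled CASP1, at -0.70 untreated (adjusted p = 0.00029). Among 16 regulators of mitotic entry and exit, 2 were lower and 1 higher with prednisolone in cells labelled CASP1, and 4 lower and 1 higher in control cells. CDC25A, the phosphatase of S and G2 phase, averaged 8.09 ± 0.14 in treated and 8.86 ± 0.062 in untreated cells labelled CASP1, against 7.59 ± 0.22 in treated and 9.14 ± 0.041 in untreated control cells. It fell by 0.76 in cells labelled CASP1 (adjusted p = 7.1e-05) and by 1.55 in control cells (adjusted p = 6.6e-09), with an interaction of 0.78 (adjusted p = 0.011). MASTL, the kinase that holds the mitotic phosphatase back, fell by 0.44 in cells labelled CASP1 (adjusted p = 0.0081) and by 1.14 in control cells (adjusted p = 1.5e-07), with an interaction of 0.70 (adjusted p = 0.015).

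Between the lines, 9 of the 16 entry and exit regulators were higher and 1 lower under prednisolone, and 3 were higher and 1 lower untreated. CKS2, which docks CDK1 on its substrates, differed by 0.95 treated (adjusted p = 6e-06) and 0.81 untreated (adjusted p = 3.1e-05), CCNF, the substrate receptor cyclin F, by 1.09 (adjusted p = 0.0043) and 0.88 (adjusted p = 0.019), and BORA, the cofactor by which aurora A activates PLK1, by 1.19 treated (adjusted p = 0.0018). Of 12 measured centrosome genes, 8 were higher and 1 lower between the treated lines, and 2 were higher and 1 lower between the untreated lines. TACC3, a spindle protein recruited by aurora A, differed by 1.13 treated (adjusted p = 0.0018) and 0.85 untreated (adjusted p = 0.015). Prednisolone lowered 0 of the 12 in cells labelled CASP1 and 5 in control cells, CEP152, which recruits PLK4 to the centriole, by 0.76 (adjusted p = 2.6e-05).

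The genes that restrain the cycle did not mirror the mitotic list. Of 14 measured, prednisolone raised 2 and lowered 1 in cells labelled CASP1 and raised 3 and lowered 2 in control cells. BTG1, an antiproliferative factor known as a glucocorticoid target, rose by 1.32 in cells labelled CASP1 (adjusted p = 0.00012) and by 1.87 in control cells (adjusted p = 9.5e-07), and GADD45B, a stress gene of the G2 checkpoint, by 1.0 (adjusted p = 0.005) and 1.16 (adjusted p = 0.00054) in the same order. CDKN1C, which encodes the inhibitor p57, fell by 1.22 in cells labelled CASP1 and by 1.58 in control cells. Between the lines 6 were higher and 0 lower, both under prednisolone and untreated. CDKN1A, which encodes the inhibitor p21, differed by 1.58 under prednisolone (adjusted p = 0.00044) and by 0.76 untreated, which was not called (adjusted p = 0.066). Cells labelled CASP1 thus had higher signals of most of the 57 members and of several genes that restrain the cycle. The other mitotic lists shared this less. In untreated cells the median line difference was 0.48 for the members, 0.19 for centrosome genes and 0.09 for entry and exit regulators. It was 0.046 for the other kinetochore subunits, -0.043 for the anaphase-promoting complex and -0.051 for cohesin and the other condensin subunits.

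The DNA replication genes give a further comparison. In cells labelled CASP1 prednisolone lowered 22 of 43 and raised 1, POLA2, with a median of -0.44, where the 57 mitotic genes had 4 lower and a median of -0.058. In control cells it lowered 38 and raised the same gene, with a median of -0.90. Replicate 1 of treated cells labelled CASP1 widens the contrast in that line. Against replicates 2 to 4 it had a median of 0.43 in the mitotic genes and -0.26 in the replication genes. Without the replicate 1 arrays the mitotic genes had 14 lower in cells labelled CASP1 and a median of -0.15. The counts and medians of the replication genes are given here over all arrays only. On replicates 2 to 4 of cells labelled CASP1 their mean signal was 8.77, 8.83 and 8.83 treated and 9.12, 9.16 and 9.18 untreated. That of the mitotic genes on the same arrays was 9.51, 9.43 and 9.46 treated and 9.61, 9.62 and 9.64 untreated. Between the untreated lines 15 of the 43 were lower and 1 higher in cells labelled CASP1, with a median of -0.22, whereas 0 of the 57 mitotic genes were lower. UNG, the uracil glycosylase of S phase, differed by -1.02 (adjusted p = 0.00071) and the helicase subunit MCM4 by -0.64 (adjusted p = 0.0019) there. Between the treated lines 18 of the 43 were higher and 0 lower, with a median of 0.25, and CDT1, the licensing factor, differed by 1.17 (adjusted p = 3e-07). The interaction was called higher for 11 of 43 replication genes (median 0.55) and for 2 of the 57 mitotic genes (median 0.28). The 2 lists were not tested against each other, and CDC25A stands both among the replication genes and among the entry regulators.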

How the data were processed

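RNA of 16 Nalm6 samples was read on Affymetrix PrimeView arrays. Per the submitters' processing notes the authors ran RMA, and the deposited table holds its log2 signals. No source at hand names the software or its version. RMA sets all arrays to a common scale, so total RNA per cell was not measured. Of 49395 probe sets, 44988 named 1 gene, and the brightest of a gene's was used, giving 18132 genes; the 1832 that name several genes were left out. No signal was compared between genes. Samples were grouped by their labels. Nothing in the labels ties the 4 arrays of a group to separate cultures. The p-values therefore reflect only the spread between these samples, which may be technical. Array data give no counts, and 4 arrays a group limit the precision.

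limma 3.58.1 in R 4.3.3 fitted 4 group means to all 16 arrays (lmFit and eBayes, two-sided, 12 residual and 5.46 prior degrees of freedom), with Benjamini-Hochberg adjustment over all genes. The script was tested on simulated data with 200 changed genes. The alternatives were quantile normalization, centring on the 75th percentile, leaving out the dimmest 30% of genes, averaging probe sets, a replicate block, a fit without the 4 replicate 1 arrays, trend and robust eBayes, a fit of only the 8 arrays compared, and leaving out each array. The members and lists were chosen with earlier results of these data known. Genes were named from a fixed set of 25, the 4 highest and 4 lowest in a comparison, the largest difference of each role group, and NR3C1 and CASP1 as label checks. For each other list the rule was up to 3 genes with the largest absolute difference in a comparison. Nearly all of those given were called. A gene named for 1 comparison may be given in others, and not every gene of the fixed set is given in every comparison.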

Additional observations from a re-analysis of the deposited data

Results flagged for a closer look

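Among 25 members, each in 4 groups, 14 of 100 groups of 4 arrays held an array farther from its neighbours than Dixon's test allows, where chance gives about 1 in 20, or 5. Of the 14, 13 were replicate 1, and 8 of these were treated cells labelled CASP1. There CCNA2 stood at 10.8948 (other arrays 10.20 to 10.27), CCNB1 at 11.1286 (10.25 to 10.38), CCNB2 at 11.1772 (10.58 to 10.67) and PLK1 at 7.62773 (6.59 to 6.72). On the same array AURKA stood at 11.2967 (10.27 to 10.34), CDC20 at 11.2566 (9.75 to 9.87), BUB1 at 11.4973 (10.87 to 10.92) and CENPA at 11.3635 (10.66 to 10.73). In replicate 1 of untreated cells labelled CASP1, CDC20 stood at 10.2481 (9.73 to 9.78) and BUB1 at 11.3164 (10.91 to 10.97). In replicate 1 of treated control cells CENPA stood at 10.5243 (10.04 to 10.10). In replicate 1 of untreated control cells AURKA stood at 10.0173 (9.30 to 9.37) and TPX2 at 9.28516 (8.78 to 8.83). BUB1 in untreated control replicate 4 was low, at 10.3199 (10.44 to 10.46).

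The response to prednisolone differed between the lines by the interaction test for SPC25, at 0.624306, and CDC25C, at 0.506406.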

How the results depend on the processing

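No setting turned the direction of a count or of a called gene. Shares of all genes called are given above only for the fit over all arrays and the fit without replicate 1. They moved between these fits, from 8.43% to 13.1% for genes lower in control cells. The other counts here have no such share beside them, so a change in the members was not told apart from a change over all genes. The count of members lower with prednisolone in control cells was 24, and 38 without the 4 replicate 1 arrays, where 1 member was also higher. In cells labelled CASP1 the count lower was 4, and it was 14 without replicate 1, 7 with probe sets averaged, 2 when centred on the 75th percentile and 2 in the fit of only the 8 arrays compared, which gave 32 lower in control cells. The interaction count was 2, and 6 without replicate 1. Leaving out single arrays gave 21 to 35 lower in control cells (21 without treated control replicate 3, 35 without treated replicate 1 of the cells labelled CASP1), 2 to 7 lower and 0 to 1 higher in cells labelled CASP1 (7 without treated replicate 1; the 1 was CDC25B without untreated control replicate 1), 27 to 40 higher between untreated lines, 47 to 49 between treated lines and 1 to 3 in the interaction. The fit with the replicate number as a replicate block gave 5 lower with prednisolone in cells labelled CASP1 and 31 in control cells. It gave 48 higher between treated and 40 between untreated lines, and 4 in the interaction. Of named genes not called over all arrays without a block, it called PLK1 between untreated lines (adjusted p = 0.0064) and MAD2L1 between treated lines (0.028). With prednisolone it also called NEK2 (0.043), TPX2 (0.009) and BUB1B (0.0099) in control cells and MAD2L1 (0.038) in cells labelled CASP1. In the interaction it called NCAPH (0.015) and AURKB (0.044). Several of these were called in other settings as well. The numbers were not taken to pair the samples: 15 of 24 same-numbered pairs correlated above 0.1 (range -0.116 to 0.507), and 7 of 16 arrays, 4 of them replicate 1, correlated best with their own number. All 6 pairs of replicate 1 arrays correlated, at 0.19 to 0.51, whereas pairs of the other numbers reached at most 0.26. Replicate 1 thus shared a deviation over all genes across the 4 groups. The other scalings and filters gave 23 to 26 lower in control cells, 32 to 36 higher between untreated lines and 46 to 50 between treated lines, and moved the median of all genes by less than 0.1.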
